A study of Mus musculus with 12 samples.

Results

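Epiblast tissue of the mouse embryo at embryonic day 6.5 (E6.5) was compared with epiblast tissue at E5.75. The comparison took in all 22180 genes that the array's probe set table names by a single symbol, out of 41345 probe sets, and it rested on 4 of the 12 expression arrays in the series, 2 for each stage. The remaining 8 arrays measured cultured lines, 2 each of ESC, EpiSC, rsEpiSC derived at E5.75 and rsEpiSC derived at E6.5. The ESC were labelled E3.5 and grown with 3 µM CHIR99021 and 1 µM PD0325901. The EpiSC were labelled E5.75 and grown with 12 ng/ml FGF2, 20 ng/ml Activin A and 20% KSR. Signals were log2 values, so a difference of 1 is a 2-fold difference in signal.

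Both tissue groups were labelled as in vivo epiblast of embryos that carry the OCT4-deltaPE-GFP transgene, a green fluorescent reporter under Oct4 regulatory sequence, crossed with C57BL. No treatment was given for either. The rsEpiSC lines, used below for 1 comparison, were grown on mouse embryonic fibroblasts in N2B27 medium with 2.5 µM IWR1, an inhibitor of Wnt signalling, and 20 ng/ml of a factor whose name the label leaves out. The labels do not say how the epiblast was separated from the tissues around it, how many embryos an array holds, or whether the 2 arrays of a stage came from different litters. The p-values therefore measure a spread between arrays that may be technical. In the fit to all 12 arrays that spread is taken from all 6 groups, the cultured lines included. In tissue, fewer cells that express a gene and less RNA per cell cannot be told apart.

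The epiblast is the cup of pluripotent cells that gives rise to the whole embryo proper. Shortly before gastrulation it is a polarised epithelium that has lost the naive pluripotency programme of the blastocyst. Gastrulation begins at its posterior edge, where Nodal, Wnt and BMP signals induce the primitive streak. Cells there switch on T-box and homeobox factors and leave the epithelium as mesoderm and endoderm. Over the same days the genome of the epiblast becomes methylated, and germline genes are among the best known targets of that silencing.

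The 4 tissue arrays did not pair by stage alone. Over all genes the 2 E6.5 arrays correlated at 0.962 and the 2 E5.75 arrays at 0.943, while arrays of different stages correlated at 0.944 to 0.955. Replicate 1 of E5.75 stood apart. It lay at -62.7 on the first principal component of the tissue arrays (42% of their variance), with the other 3 arrays at 13.7 to 29.2, and its signals had an interquartile range of 2.23 against 2.57 to 2.68. The difference between replicates, as a root mean square SD over genes, was 0.464 at E5.75 and 0.388 at E6.5, against 0.264 and 0.242 in the rsEpiSC lines of these stages, 0.341 in EpiSC and 0.413 in ESC.

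No defining marker of a neighbouring tissue passed. The defining markers of visceral endoderm, the layer that encloses the epiblast, had signals of 3.54 to 5.05 on the tissue arrays, and their differences ran from -0.40 to 0.07, with 0 of 9 at an unadjusted p under 0.05. Of the 16 other genes of that list Spink1 (8.23 and 8.87, then 7.09 and 7.03) and Sox7 (4.32 and 4.14, then 3.20 and 3.29) were lower at an unadjusted p under 0.05 and Gata6, described below, was higher. Of 7 defining markers of decidua, the maternal tissue, 2 were lower at an unadjusted p under 0.05, against 6.72% of all genes: Hand2 (4.01 and 3.92, then 3.68 and 3.00) and Hoxd11 (4.02 and 4.17, then 3.53 and 3.35). Their part in the results was not tested. Of 6 markers of blood cells 0 reached that p. The table has no detection calls, so whether these signals lie above background was not tested. Xist, the RNA of the inactive X chromosome, had signals of 8.41 to 9.05, and the Y-linked gene Eif2s3y had signals of 8.10 to 8.55, so each of the 4 arrays had signal for both.

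In the fit to all 12 arrays 5 genes passed the test (limma, adjusted p under 0.05), of which 3 were higher and 2 lower at E6.5. They are 0.0225% of all genes tested. The higher genes were Mixl1, Daam1 and Mir3070a, and the lower were Dppa2 and H4c9. All 5 differed by more than 2-fold, and for each the 2 arrays of one stage lay entirely above those of the other. Genes that pass with 2 arrays a stage tend to have such values, so this adds no support. Of all genes, 18% were separate in this way in the higher direction and 18.4% in the lower. That fit takes its estimate of the spread from all 6 groups. Its SEs and intervals are therefore not those of tissue alone (median SE 0.30 against 0.37). A fit to the 4 tissue arrays alone called 0 genes, with a smallest adjusted p of 0.144 (limma), and 1333 genes, 6.01%, had an unadjusted p under 0.05 there.

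Mixl1, a homeobox factor of the nascent primitive streak that directs mesoderm and endoderm, had the largest rise. Its signal was 4.28 and 3.56 on the E5.75 arrays and 6.95 and 7.88 on the E6.5 arrays. Both E6.5 arrays were above every other array of the series, on which Mixl1 lay between 3.56 and 4.46. The difference was 3.49 ± 0.37 (SE, n = 2 and 2), with a 95% interval of 2.70 to 4.29 and an adjusted p of 0.0128 (limma). Over the alternatives its adjusted p ran from 0.00511 to 0.154, and it passed in 11 of 14. It was 3.86 without E5.75 replicate 1 (adjusted p = 0.0125, limma) and 3.03 without E6.5 replicate 2, where it no longer passed (adjusted p = 0.154, limma).

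Daam1 encodes a formin, a protein that assembles actin filaments. It had signals of 4.83 and 4.52 at E5.75 and of 6.87 and 6.72 at E6.5. The difference of 2.13 ± 0.28 (SE) had an adjusted p of 0.0468 (limma), which ran from 0.0167 to 0.408 over the alternatives. It passed without either E5.75 array, and not without E6.5 replicate 1 (2.05, adjusted p = 0.119, limma) or replicate 2 (2.20, adjusted p = 0.154, limma). The E5.75 tissue arrays were the lowest of the series for this gene. ESC had signals of 6.95 and 6.35, and EpiSC had 8.33 and 8.07.

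Mir3070a, a microRNA gene, had signals of 4.31 and 3.41 at E5.75 and of 5.92 and 5.94 at E6.5. It rose by 2.07 ± 0.29 (SE), with an adjusted p of 0.0468 (limma) that ran from 0.0114 to 0.462 over the alternatives. Without E6.5 replicate 1 or replicate 2 it did not pass (2.08 and 2.06, adjusted p = 0.119 and 0.154, limma), and without E5.75 replicate 1 the difference was 2.52. The 8 arrays of cultured lines lay between 2.84 and 3.74. Mir3070a has a close copy, Mir3070b, with a hairpin of the same 89 bases that differs at 5 of them. Their mature products are shown to compare the copies. In RefSeq on GRCm38.p6 the genes lie on the plus strand of chr12, and seed bases 2 to 8 are in capitals.
mmu-miR-3070-5p of Mir3070a, chr12:109587959-109587981: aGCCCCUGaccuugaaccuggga
mmu-miR-3070-5p of Mir3070b, chr12:109588608-109588630: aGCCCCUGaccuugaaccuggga
mmu-miR-3070-3p of Mir3070a, chr12:109587999-109588020: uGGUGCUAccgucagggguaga
mmu-miR-3070-2-3p of Mir3070b, chr12:109588648-109588669: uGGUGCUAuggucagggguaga
The 5p products of the copies are the same sequence. The 3p products share their seed and differ at 2 bases outside it. The probe set of Mir3070b had signals of 4.19 and 1.83 at E5.75 and of 2.11 and 3.79 at E6.5. Its arrays overlapped, and the difference of -0.06 ± 0.70 (SE) did not share the rise of Mir3070a. How far either probe set reads both copies was not tested. Total RNA was amplified for these arrays, so the signal may also come from the precursor transcript rather than the mature product.

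Mir3070a lies in the imprinted interval between Dlk1 and Dio3. This group of genes was looked at after the result for Mir3070a was seen. RefSeq places 103 genes in the interval and 55 of them were measured. Among these, 3 were higher and 1 was lower at an unadjusted p under 0.05, against 5.99% and 6.72% of all genes. The median difference was -0.20. The higher ones were Mir3070a itself, for which the interval was chosen, Mir370 and DQ267101. The lower one was Mir668 (3.82 and 3.60, then 3.03 and 2.80). The long noncoding RNAs of the interval did not share the difference: Meg3 had 0.18 ± 0.36 and Rian had -0.31 ± 0.38 (SE). Mir370 had signals of 2.16 and 2.63 at E5.75 and of 4.10 and 3.81 at E6.5, a difference of 1.56 with an adjusted p of 0.234 (limma). The small nucleolar RNA DQ267101 had signals of 2.91 and 4.67 at E5.75 and of 5.48 and 7.08 at E6.5, a difference of 2.49 with an adjusted p of 0.177 (limma).

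Dppa2, a chromatin protein of pluripotent cells and early germ cells, had the largest fall among the genes that passed. Its signal was 7.88 and 8.39 at E5.75 and 5.66 and 4.82 at E6.5. It fell by 2.90 on the log2 scale (SE 0.40), with a 95% interval of -3.77 to -2.03 and an adjusted p of 0.0468 (limma), which ran from 0.0228 to 0.283 over the alternatives. It passed without E5.75 replicate 2 alone of the 4 arrays. The adjusted p was 0.0533 without E5.75 replicate 1, 0.104 without E6.5 replicate 1 and 0.154 without E6.5 replicate 2 (limma). The ESC arrays had 9.21 and 8.02, near the E5.75 tissue, and EpiSC and rsEpiSC lay between 3.23 and 4.08, below both tissue stages. Its partner Dppa4 had signals of 9.06 and 9.19 at E5.75 and of 8.44 and 7.77 at E6.5. The difference of -1.02 ± 0.36 (SE) was in the same direction and did not pass (adjusted p = 0.284, limma).

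H4c9 encodes histone H4. It had signals of 6.88 and 7.42 at E5.75 and of 4.69 and 4.52 at E6.5, and fell by 2.54 on the log2 scale (SE 0.34, adjusted p = 0.0468, limma). Over the alternatives that p ran from 0.0175 to 0.446. Without E6.5 replicate 1 it was 0.119 and without E6.5 replicate 2 it was 0.154 (limma). Histone H4 genes encode the same protein and their coding sequences are very similar, so probes may not separate them. The other H4 genes did not share the fall. H4c12, for example, had signals of 10.45 and 10.56 at E5.75 and of 10.63 and 10.40 at E6.5. Of 29 histone genes picked by symbol after this result was seen, 3 were higher and 3 lower at an unadjusted p under 0.05 (5.99% and 6.72% of all genes). The median difference of the 29 was 0.06.

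**Figure D1:**
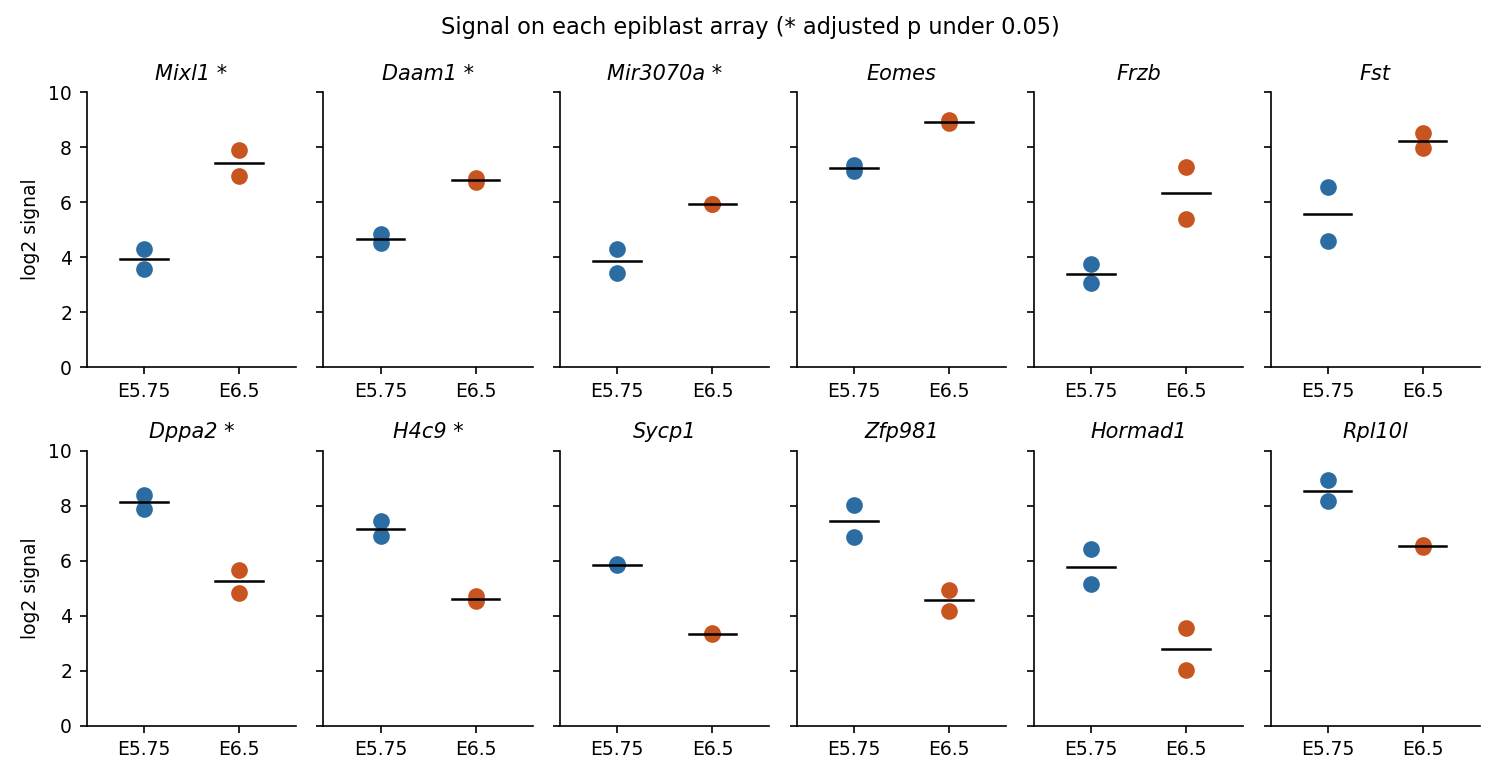
Log2 signal (vertical axis) on each of the 2 E5.75 and 2 E6.5 epiblast arrays for 12 genes, with points for arrays, lines for the mean of a stage and an asterisk for an adjusted p under 0.05 in the fit to all 12 arrays. In every panel the arrays of the stages are separate, from Mixl1 with 4.28 and 3.56 against 6.95 and 7.88 to Rpl10l with 8.94 and 8.15 against 6.56 and 6.48. Most of these genes were named by a rule that requires separate arrays. Of all genes 18% were separate in the higher direction and 18.4% in the lower.

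Beyond the genes that passed, the distribution of differences was narrow. The median over all genes was -0.01, and the 5th and 95th percentiles were -0.74 and 0.74. An unadjusted p under 0.05 was reached by 1329 genes higher at E6.5 (5.99%) and 1490 lower (6.72%). The arrays of the stages did not overlap for 4002 genes in the higher direction (18%) and 4075 in the lower (18.4%). In all 16 genes had an adjusted p under 0.1, 9 higher and 7 lower. Among the higher ones that did not pass were Prkd2, a protein kinase (1.88 ± 0.28, adjusted p = 0.0564, limma), and Prtg, protogenin, a membrane protein of the early embryo (1.52 ± 0.24, adjusted p = 0.0791, limma).

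**Figure D2:**
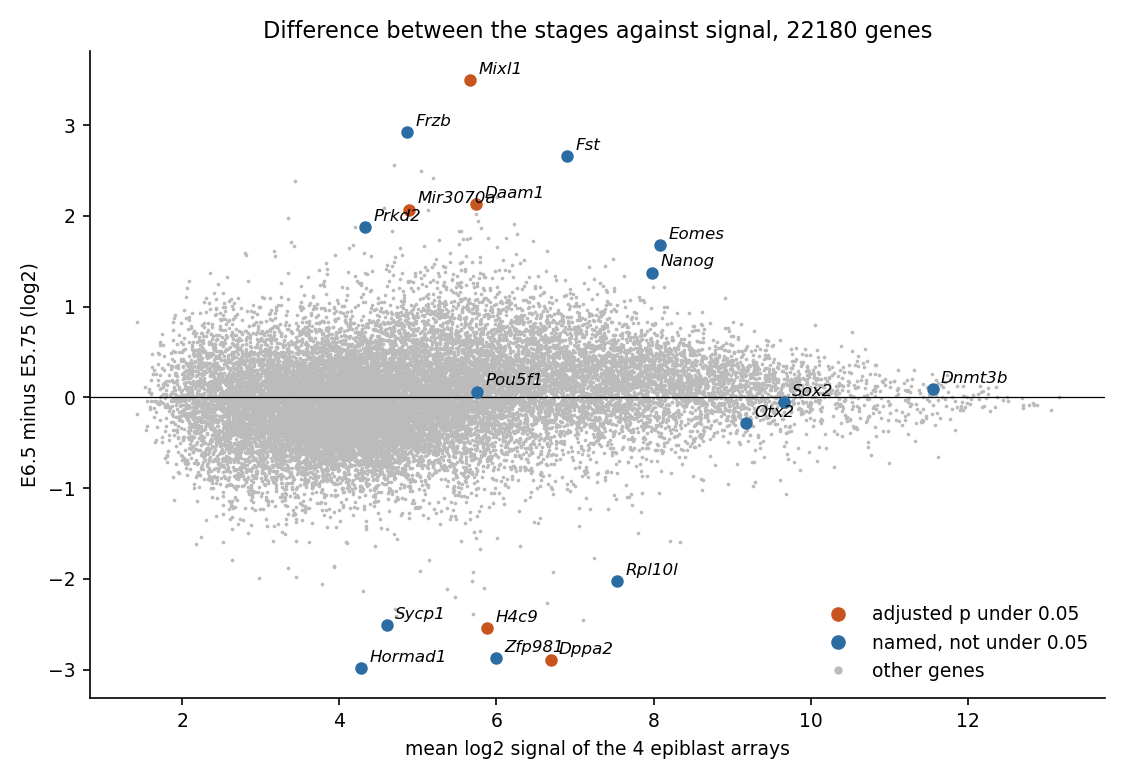
Difference between the stages (E6.5 minus E5.75, log2, vertical axis) against the mean log2 signal of the 4 tissue arrays (horizontal axis) for 22180 genes, with the 5 genes of adjusted p under 0.05 in orange and other named genes in blue. Pluripotency genes such as Sox2 (-0.06) and Dnmt3b (0.09) sit on the zero line, while Mixl1 (3.49) and Hormad1 (-2.99) lie at the edges.

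Genes of the primitive streak were the group with the most positive median, among lists chosen with earlier results of these data known. Of 36 measured members, Mixl1 passed, 9 were higher and 2 lower at an unadjusted p under 0.05 (5.99% and 6.72% of all genes), and the median difference was 0.35 against -0.01 over all genes. Without E6.5 replicate 2 that median was 0.20, and without E5.75 replicate 1 it was 0.32. A further gene of this list was not analysed here. Eomes, a T-box factor needed for mesoderm to leave the streak and for definitive endoderm, came next by adjusted p. Its signal was 7.14 and 7.35 at E5.75 and 8.88 and 8.97 at E6.5. The difference of 1.68 ± 0.26 (SE) was larger than the spread between replicates, and its adjusted p of 0.0748 (limma) missed the threshold. Tissue of both stages lay above every cultured line, where Eomes had signals of 4.25 to 5.43.

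Eomes is also a gene of the extraembryonic ectoderm, which borders the epiblast. Of 24 measured genes of that list 4 were higher and 0 lower at an unadjusted p under 0.05 (5.99% and 6.72% of all genes). The higher ones were Eomes, Tfap2c, Ets2 and Elf5. Elf5, a defining factor of trophoblast, had signals of 3.19 and 3.15 at E5.75 and of 4.97 and 3.39 at E6.5, so replicate 1 of E6.5 was high and replicate 2 was near the E5.75 arrays. The other 8 defining markers did not reach an unadjusted p under 0.05. The summed linear signal of all 9 was 224 and 206 at E5.75 and 220 and 170 at E6.5. The part of such tissue in the Eomes signal was not tested.

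Other streak genes had differences in the same direction without passing. Fst encodes follistatin, a secreted inhibitor of activin that the streak expresses. It had signals of 4.60 and 6.56 at E5.75 and of 7.95 and 8.51 at E6.5, a difference of 2.65 ± 0.57 (SE, adjusted p = 0.147, limma), and the E5.75 arrays were 1.96 apart. Pdgfra, the PDGF receptor of nascent mesoderm, had a difference of 1.26 ± 0.40 and Fgf8, a ligand of the streak, one of 0.96 ± 0.27. Sp5, a zinc finger target of Wnt, had 0.88 ± 0.28 and Lhx1 0.59 ± 0.25 (all SE).

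Other members had smaller differences or the opposite sign. Mesp1, a factor of the first mesoderm to migrate, had signals of 4.28 and 4.49 at E5.75 and of 5.06 and 4.82 at E6.5, a difference of 0.56 with a 95% interval of -0.04 to 1.15. Snai1, the repressor of E-cadherin in the streak, had 0.71 with an interval of -0.06 to 1.48. The E6.5 arrays were above the E5.75 arrays for both. Tbx6, of later presomitic mesoderm, had -0.62 ± 0.25, and Wnt3a had -0.71 ± 0.30 (both SE).

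The Nodal pathway had 26 measured members, of which Mixl1 passed, 5 were higher and 1 was lower at an unadjusted p under 0.05 (5.99% and 6.72% of all genes). Its ligand Nodal had signals of 5.57 and 5.95 at E5.75 and of 6.16 and 4.87 at E6.5. The arrays overlapped, and the difference of -0.24 had a 95% interval of -1.48 to 0.99, wide enough to hold a 2-fold fall. Of 5 receptors, Acvr1b (0.91 ± 0.32) and Acvr2a (0.93 ± 0.31) were higher at an unadjusted p under 0.05. The transducer Smad3 had signals of 5.59 and 5.61 at E5.75 and of 4.29 and 4.49 at E6.5, a difference of -1.21 ± 0.24 (adjusted p = 0.133, limma). The feedback inhibitors Lefty1 (0.17 ± 0.65) and Lefty2 (0.34 ± 0.91) and the antagonist Cer1 (0.13 ± 0.24) had differences smaller than their SE. The higher members were these receptors, Fst, Eomes and Mixl1.

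The Wnt pathway had 5 of 48 members higher and 1 lower at an unadjusted p under 0.05 (5.99% and 6.72% of all genes) and none passed. The lower one was the ligand Wnt3a (-0.71). Wnt3, the ligand that starts the streak, had signals of 5.08 and 4.24 at E5.75 and of 4.02 and 4.11 at E6.5, a difference of -0.60 with an interval of -1.43 to 0.24. Frzb, a secreted Wnt antagonist, had the second largest positive difference of the named genes. Its signal was 3.76 and 3.05 at E5.75 and 5.38 and 7.27 at E6.5. The E6.5 arrays were both higher but far apart, and the difference of 2.92 ± 0.48 (SE) had an adjusted p of 0.087 (limma). The agonist Rspo3, an R-spondin, had 1.37 ± 0.29, the feedback ligase Znrf3 had 0.99 ± 0.33 and the receptor Lrp5 had 0.95 ± 0.34. Axin2, the common readout of Wnt activity, had 0.49 with an interval of -0.17 to 1.15.

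Of 26 BMP pathway genes, 3 were higher and 2 lower at an unadjusted p under 0.05 (5.99% and 6.72% of all genes). Smad5, a transducer of BMP signals, had signals of 4.52 and 4.99 at E5.75 and of 6.09 and 5.84 at E6.5, a difference of 1.21 ± 0.27 (SE). The target Id4 had 0.94 ± 0.26 and the receptor Bmpr2 had 0.71 ± 0.32. The antagonists Chrd (-0.76 ± 0.30) and Bambi (-0.74 ± 0.25) were lower. Bmp4, a ligand made mainly by the extraembryonic ectoderm at these stages, had signals of 4.69 and 5.28 at E5.75 and of 5.57 and 6.18 at E6.5, a difference of 0.89 ± 0.58 (SE).

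Of 25 FGF pathway genes 2 were higher and 3 lower at an unadjusted p under 0.05 (5.99% and 6.72% of all genes). Of these, 2 ligands had differences of opposite sign. Fgf8 had 4.80 and 4.53 at E5.75 and 5.46 and 5.79 at E6.5. Fgf4, the ligand of inner cell mass and early epiblast, had 6.23 and 7.24 at E5.75 and 5.55 and 6.08 at E6.5, a difference of -0.92 ± 0.35 (SE). Neither passed. In the Notch list Notch2 (1.11 ± 0.26) and Lfng (0.75 ± 0.34) were higher at an unadjusted p under 0.05, 2 of 18. In the retinoic acid list the degrading enzyme Cyp26a1 had 1.00 ± 0.39 and the binding protein Crabp2 had -0.91 ± 0.25.

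**Figure D3:**
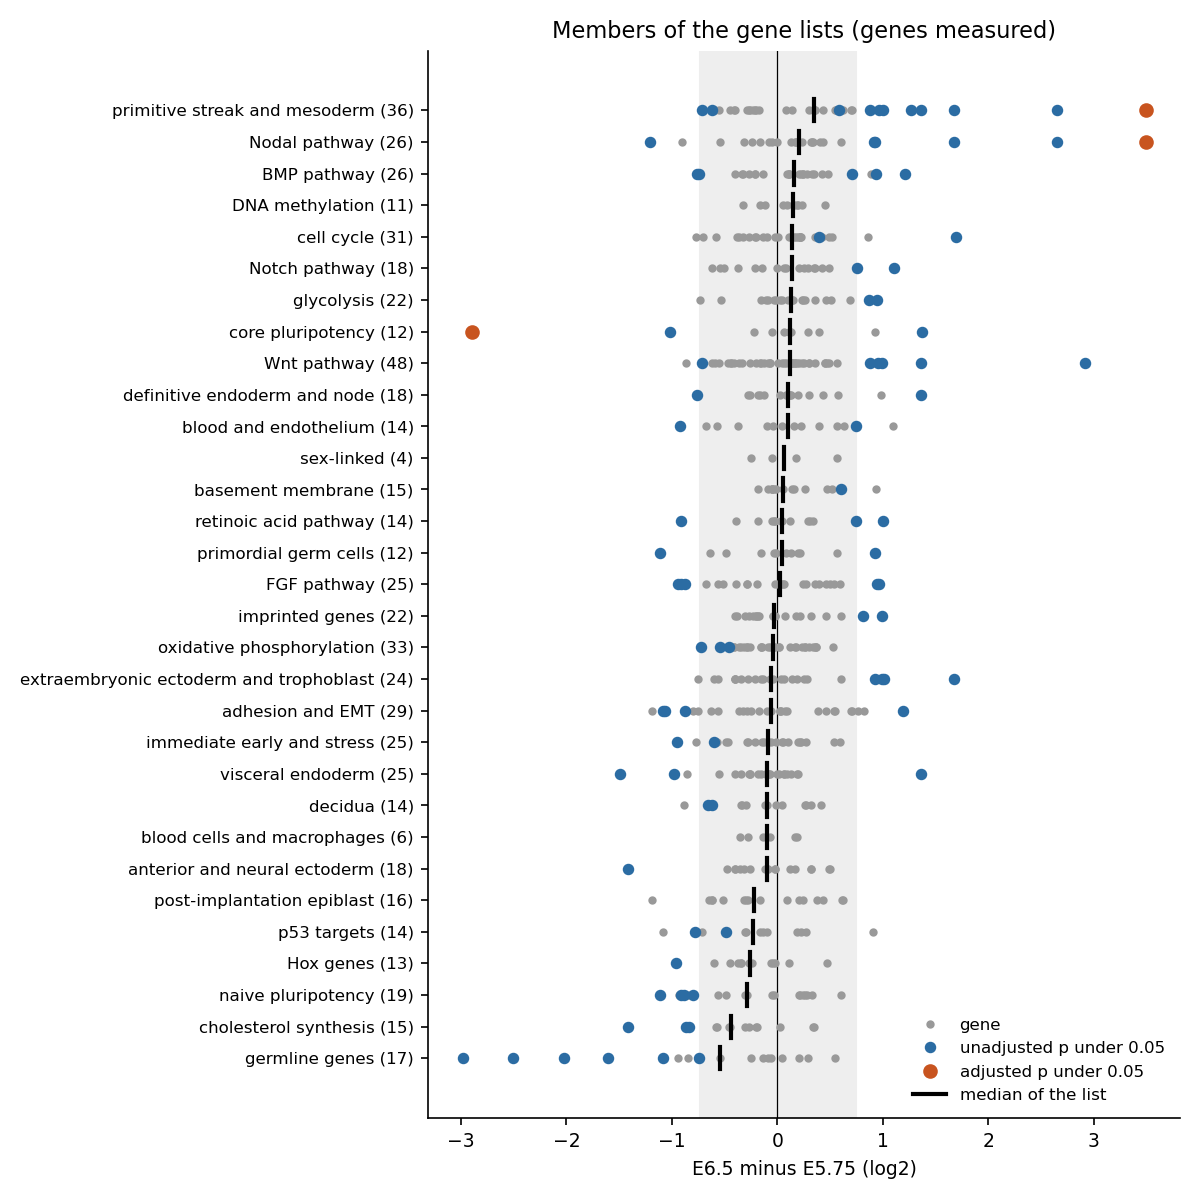
Differences between the stages (E6.5 minus E5.75, log2, horizontal axis) of the measured members of 31 gene lists, 1 point a gene and 1 row a list ordered by its median (black bar), with the grey band running from the 5th to the 95th percentile of all genes, -0.74 to 0.74. The primitive streak list has the highest median (0.35) and the germline list the lowest (-0.54), and most members of every list lie within the band. The lists were chosen with earlier results of these data known.

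Most core pluripotency genes had differences near 0. Of 12 core factors Dppa2 passed, and the median difference was 0.12. Pou5f1, which encodes Oct4, had signals of 5.54, 5.90, 5.83 and 5.75 over the 4 arrays, E5.75 first, a difference of 0.06 with a 95% interval of -0.66 to 0.78. Sox2 had a difference of -0.06 with an interval of -0.58 to 0.47, and Utf1 had 0.11 with an interval of -0.69 to 0.91. In the fit to 12 arrays the intervals of Pou5f1, Sox2 and Utf1 each exclude a 2-fold difference either way. Nanog, which returns in the posterior epiblast, had signals of 6.89 and 7.69 at E5.75 and of 8.81 and 8.53 at E6.5. Both E6.5 arrays were higher, and the difference of 1.38 ± 0.35 (SE) did not pass (adjusted p = 0.176, limma).

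Naive pluripotency factors, which mark the preimplantation epiblast, had 0 of 19 higher and 4 lower at an unadjusted p under 0.05 (5.99% and 6.72% of all genes). Their median was -0.29, and it was -0.08 without E6.5 replicate 2. The lower ones were Dppa3, a maternal protein that protects imprints (6.02 and 7.27, then 5.76 and 5.29), Fgf4, Jam2 and Klf2 (5.84 and 5.63, then 4.77 and 5.11). Klf4, Esrrb, Zfp42 and Tfcp2l1, which define the naive state in culture, had differences of -0.06, 0.61, 0.28 and -0.03. Of 16 genes of the post-implantation epiblast none reached an unadjusted p under 0.05. Otx2 (-0.28), Fgf5 (0.24), Pou3f1 (-0.30) and Dnmt3b (0.09) had differences near 0. The intervals for Fgf5 (-1.18 to 1.66) and Dnmt3b (-1.11 to 1.29) were wide enough to hold a 2-fold difference either way. The DNA methylation list, with its writers, erasers and readers, had 0 of 11 at an unadjusted p under 0.05.

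Germline genes had the most negative median of the 31 lists in the fit reported. The lists were chosen with earlier results of these data known, so the rank and the counts are not independent of these values. The order also depended on signal: over germline genes above the median signal of all genes the median was -0.06. Of 17 measured, none passed, 0 were higher and 6 lower at an unadjusted p under 0.05 (6.72% of all genes), and the median was -0.54. It was -0.24 without E6.5 replicate 2 and -0.37 without E5.75 replicate 1. Sycp1, a component of the synaptonemal complex of meiosis, had signals of 5.82 and 5.89 at E5.75 and of 3.32 and 3.37 at E6.5. The stages were far apart and the replicates were close, and the difference of -2.51 ± 0.36 (SE) missed the threshold with an adjusted p of 0.0548 (limma). Hormad1, another protein of the meiotic chromosome axis, had 6.40 and 5.14 at E5.75 and 3.54 and 2.04 at E6.5, the largest difference of the list at -2.99 ± 0.73. Rpl10l, a testis form of a ribosomal protein, had 8.94 and 8.15 at E5.75 and 6.56 and 6.48 at E6.5. Piwil2 and Asz1, of the piRNA pathway that silences transposons, had -1.61 ± 0.41 and -1.09 ± 0.21 (SE), and Dazl, an RNA-binding protein of germ cells, had -0.75 ± 0.34.

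The other 11 germline genes did not reach an unadjusted p under 0.05. Stk31 (-0.94 ± 0.47), Tex11 (-0.84 ± 0.42) and Mael (-0.54 ± 0.40) had negative differences, and Tdrkh had 0.55 ± 0.38 (SE). Ddx4, the germ cell helicase also called Vasa, had signals of 5.81 and 6.01 at E5.75 and of 6.06 and 6.34 at E6.5, a difference of 0.29. Brdt (0.04), Taf7l (-0.09), Mov10l1 (-0.06) and Tdrd1 (0.20) had arrays that overlapped between the stages.

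**Figure D4:**
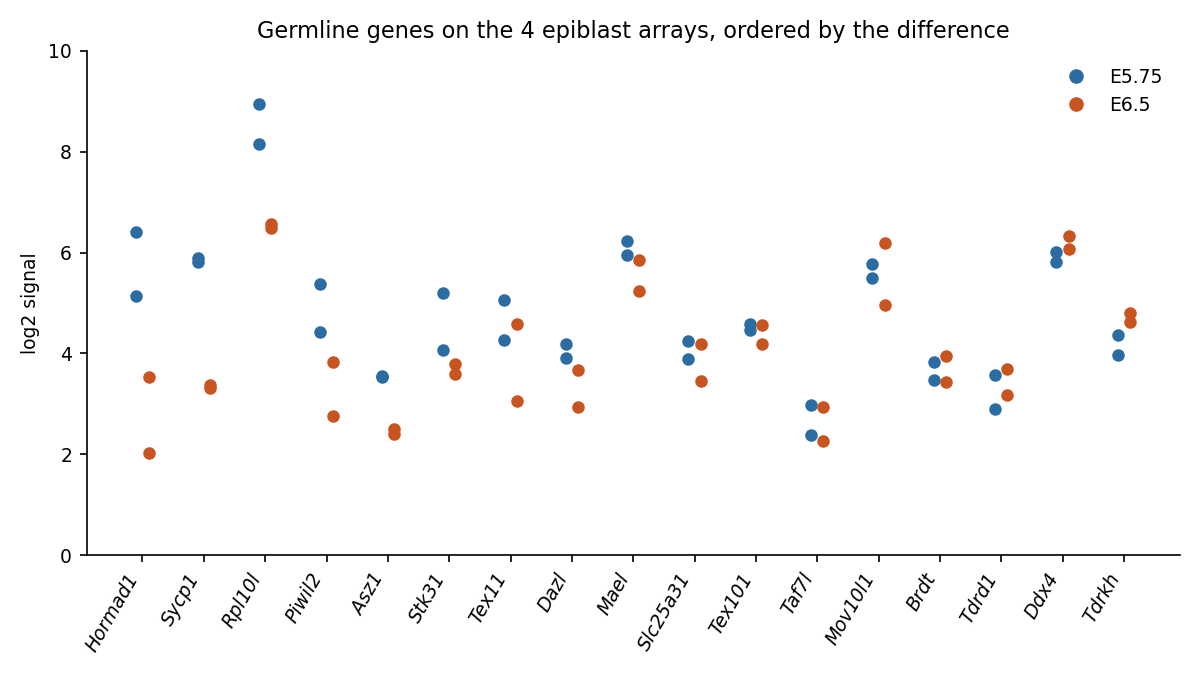
Log2 signal (vertical axis) of 17 germline genes on the 4 epiblast arrays, blue for E5.75 and orange for E6.5, ordered from the most negative difference. The stages are wide apart for Hormad1 (-2.99) and Sycp1 (-2.51), and overlap or nearly meet in the right part of the plot, such as Brdt (0.04).

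Many germline promoters carry the E-box CACGTG, the letters bound by MGA and MAX, which recruit a repressor of germline genes. In RefSeq's promoter windows of 300 bases on GRCm38.p6, 10 of 15 germline genes with an entry held CACGTG, a palindrome that reads the same on both strands, against 9.2% of the 16990 measured genes with an entry. The letters did not sort the genes that differed from those that did not: 2 of the 5 genes lower at an unadjusted p under 0.05 held them, and 8 of the other 10. The lower genes Asz1, Dazl and Rpl10l did not hold them and are not shown. Shown are the promoters of Sycp1 and Hormad1, the 2 lower genes that held the letters, and of Ddx4, which held them with a small difference. Each is the 200 bases before the gene's start, read 5′ to 3′ on the gene's strand (minus for Sycp1 and Ddx4, plus for Hormad1), with CACGTG in capitals, and with the lowest coordinate used where RefSeq gives several starts.
Sycp1, chr3:102936101-102936300: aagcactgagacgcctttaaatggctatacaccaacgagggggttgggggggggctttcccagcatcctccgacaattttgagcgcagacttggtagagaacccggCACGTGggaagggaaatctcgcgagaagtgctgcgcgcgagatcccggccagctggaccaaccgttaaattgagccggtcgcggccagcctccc
Hormad1, chr3:95559477-95559676: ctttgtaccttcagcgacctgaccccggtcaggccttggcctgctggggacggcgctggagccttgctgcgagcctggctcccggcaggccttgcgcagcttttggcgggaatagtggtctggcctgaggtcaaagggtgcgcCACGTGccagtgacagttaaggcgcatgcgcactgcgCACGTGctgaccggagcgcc
Ddx4, chr13:112652311-112652510: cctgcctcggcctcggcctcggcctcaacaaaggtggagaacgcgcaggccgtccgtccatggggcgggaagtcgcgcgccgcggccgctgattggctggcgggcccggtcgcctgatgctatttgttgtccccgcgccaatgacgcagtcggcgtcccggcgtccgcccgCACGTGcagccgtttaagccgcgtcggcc
Sycp1 and Ddx4 hold 1 match each and Hormad1 holds 2. Over the full windows these promoters hold 21, 38 and 24 CpG sites for Sycp1, Ddx4 and Hormad1, against a median of 7 over all promoters. A match is a description of the letters and does not show binding.

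Zfp981 and Zfp985, KRAB zinc finger genes of a repeated gene family, were also among the lowest. Zfp981 had signals of 6.85 and 8.02 at E5.75 and of 4.94 and 4.18 at E6.5, a difference of -2.88 ± 0.43 (SE, adjusted p = 0.0564, limma). Zfp985 had -2.13 ± 0.51 (adjusted p = 0.157, limma). Members of this family are alike in sequence, so their signals may be shared.

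The cholesterol synthesis list was the next lowest, with a median of -0.44. Of its 15 measured genes 0 were higher and 3 lower at an unadjusted p under 0.05 (5.99% and 6.72% of all genes). Msmo1, a sterol demethylation enzyme, had signals of 7.65 and 7.86 at E5.75 and of 6.49 and 6.18 at E6.5, a difference of -1.42 ± 0.35 (SE). Nsdhl (-0.86 ± 0.27) and Cyp51 (-0.84 ± 0.30) act next to it in the pathway. None passed. In glycolysis 2 of 22 genes were higher at an unadjusted p under 0.05, Ldha (0.95 ± 0.32) and Pfkp (0.87 ± 0.26), and in oxidative phosphorylation 3 of 33 were lower, Uqcrc1 (-0.46), Cox5b (-0.55) and Cox7a2 (-0.72). The counts for glycolysis and oxidative phosphorylation are near the shares of all genes, 5.99% higher and 6.72% lower, and none of their genes passed.

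The cadherins gave no common direction. Cdh2, N-cadherin, had 8.04 and 8.59 at E5.75 and 7.09 and 7.18 at E6.5 on the probe set kept, a difference of -1.18 ± 0.61 (SE). Its other probe set had 5.05 and 5.10 at E5.75 and 6.20 and 6.51 at E6.5, a difference of 1.28 ± 0.47, so the direction for Cdh2 depends on the probe set. Cdh1, E-cadherin, had 0.77 on the kept probe set with an interval of -1.03 to 2.56, and 0.06 on the other. Fn1, the matrix protein fibronectin, had 6.32 and 6.84 at E5.75 and 7.66 and 7.87 at E6.5, a difference of 1.19 ± 0.32. Among the 29 adhesion and EMT genes, Fn1 was the only one higher at an unadjusted p under 0.05, and Cldn4, Snai2 and Twist1 were lower. Of all genes 5.99% were higher and 6.72% lower at that p.

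Patterning genes of later stages had 0 passed. At an unadjusted p under 0.05, reached in the lower direction by 6.72% of all genes, 1 of 18 anterior and neural factors was lower, Pax2 (4.30 and 3.28, then 2.45 and 2.30). By the same criterion 1 of 13 Hox genes was lower, Hoxa3 (-0.96 ± 0.25). The Hox genes had 11 negative and 2 positive differences and a median of -0.26, with signals between 2.89 and 4.60. Gata6, a factor of endoderm, had 3.60 and 3.70 at E5.75 and 4.64 and 5.39 at E6.5, a difference of 1.37 ± 0.50. In the cell cycle list Ccnd2, a D-type cyclin, had 4.75 and 4.59 at E5.75 and 5.89 and 6.84 at E6.5 (1.69 ± 0.53). It was 1 of 2 among 31 genes that were higher at an unadjusted p under 0.05 (5.99% of all genes), with 0 lower. Of 22 imprinted genes Peg3 (0.99 ± 0.40, adjusted p = 0.336, limma) and Grb10 (0.81 ± 0.26, adjusted p = 0.236, limma) were higher at an unadjusted p under 0.05 and 0 were lower, while 9 differences were positive and 13 negative.

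The same stages can be compared in the rsEpiSC lines. There 19 genes passed, 14 higher and 5 lower in the E6.5 lines, and 0 of them were among the 5 of tissue. With so few of the 22180 genes passing on either side, this overlap cannot tell whether the difference in tissue has a counterpart in culture. Across the 22180 genes, which are not independent replicates, the differences in tissue and in lines correlated at -0.01. The difference in tissue minus that in lines, tested as an interaction in the fit to 12 arrays, passed for 2 genes (0.00902%), Mid1 and Xist, and for both the larger difference was that in the lines, which also differed in Y-linked genes: Eif2s3y had 5.16 and 2.33 in the E5.75 lines and 7.64 and 7.36 in the E6.5 lines. For Mixl1 it was 3.62 ± 0.52 (SE, adjusted p = 0.0636, limma) and for Daam1 2.85 ± 0.39 (adjusted p = 0.0585, limma), so neither interaction passed. Eomes had 1.68 in tissue and 0.87 in lines, and Rspo3 had 1.37 and 1.38. Utf1, with 0.11 in tissue, was 3.32 ± 0.37 higher in the E6.5 lines (adjusted p = 0.00587, limma), and the interaction for Utf1 was -3.21 with an adjusted p of 0.0875 (limma).

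**Figure D5:**
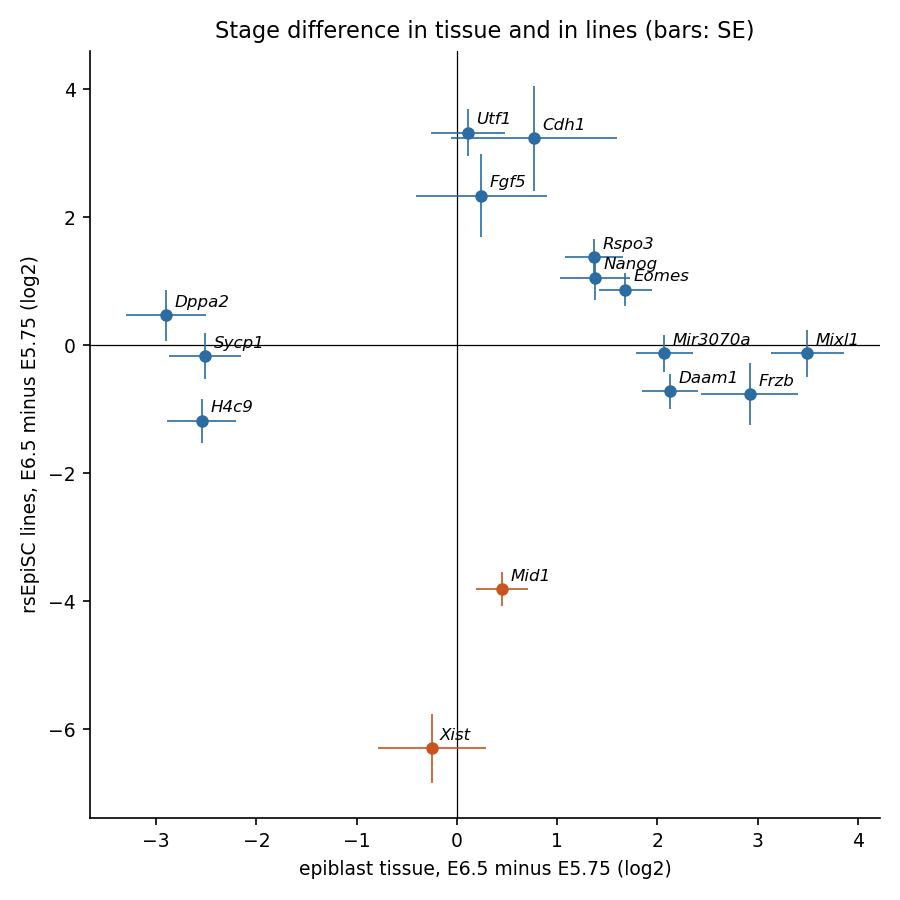
Stage difference in rsEpiSC lines (E6.5 minus E5.75, log2, vertical axis) against that in epiblast tissue (horizontal axis) for 15 genes, with bars of 1 SE and orange for the 2 genes whose interaction passed. Mixl1, Daam1 and Frzb lie to the right at or below the zero line of the vertical axis, and Xist (-6.30) and Mid1 (-3.81) lie far below it.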

How the data were processed

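RNA of epiblast tissue and cultured mouse lines was measured on 12 Affymetrix arrays. The deposited table holds log2 signals; the submitters' processing notes name oligo and RMA, the latter a method of background correction and quantile normalization, with no version. The protocol in the labels names a human array, but the identifiers are those of a mouse one. Of 41345 probe sets, 23521 had 1 gene symbol, 1814 several and 16010 none, and for 1082 genes the probe set of highest mean over all arrays was kept. RefSeq (GRCm38.p6) held 99.16% of the gene identifiers and changed 0 symbols.

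Differences were tested with limma 3.58.1 (R 4.3.3) on 6 group means over 12 arrays, eBayes with a variance trend, and Benjamini-Hochberg adjustment over 22180 genes. An adjusted p under 0.05 passed. No filter on signal was applied. The script was tested on simulated data. The stages, gene lists, named genes and alternatives were chosen with earlier results of these data known. Named genes were those that passed, the 15 highest and 15 lowest whose arrays did not overlap (leaving out predicted, RIKEN, microRNA, small nucleolar, olfactory and vomeronasal symbols), the leading members of each list, and a set of stage markers. Other list members named had an unadjusted p under 0.05, or were chosen after their values were seen. The precision is limited by 2 arrays a stage. Alternatives were other normalizations, samples, variance settings, probe set rules and a signal filter. Sequences are RefSeq's.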

Additional observations from a re-analysis of the deposited data

Results flagged for a closer look

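For 2 genes the stage difference in tissue differed from that in the rsEpiSC lines, by the interaction term of the fit to 12 arrays. For Mid1, an X-linked gene for a microtubule-associated ubiquitin ligase, the difference in tissue minus that in lines was 4.27 ± 0.37 (SE, adjusted p = 0.00159, limma). Its signal was 5.71 and 5.40 in E5.75 tissue and 5.85 and 6.17 in E6.5 tissue, against 10.57 and 10.68 in the E5.75 lines and 6.60 and 7.02 in the E6.5 lines. The 2 E5.75 lines stood above the other 10 arrays. The adjusted p ran from 0.000817 to 0.0892 over 14 alternatives, and Mid1 passed in 13 of them.

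For Xist the difference in tissue minus that in lines was 6.05 ± 0.76 (SE, adjusted p = 0.0451, limma). Its signal was 9.05 and 8.78 in E5.75 tissue and 8.41 and 8.92 in E6.5 tissue, against 8.23 and 10.19 in the E5.75 lines and 3.17 and 2.65 in the E6.5 lines. The 2 E6.5 lines were the lowest arrays of the series. Y-linked genes differed the other way in the lines: Eif2s3y had 5.16 and 2.33 in the E5.75 lines and 7.64 and 7.36 in the E6.5 lines, and Kdm5d had 4.56 and 2.53, then 6.30 and 6.14. In the rsEpiSC lines, stage and these sex-linked signals cannot be told apart, for Mid1 as for Xist. The EpiSC arrays had Xist at 9.84 and 8.72 and Eif2s3y at 1.81 and 2.86, with Mid1 at 6.43 and 6.29. The part of sex-linked signals in the Mid1 difference was not tested. The adjusted p ran from 0.0242 to 0.242, and Xist passed in 6 of 14 alternatives. A test for an array that stands far from its group needs 4 arrays a group and was not run.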

How the results depend on the processing

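The count of genes that passed in tissue (5) was the most sensitive value. It was 0 in the fit to the 4 tissue arrays and 0 with array weights, against 1333 genes at an unadjusted p under 0.05 in the former. It was 1 with the replicate block, 14 after quantile normalization, 3 with arrays centred on their median, 3 among genes above the median mean signal, and 10 with every probe set tested (Mixl1 and 9 probe sets without a gene symbol). Leaving out 1 array gave 0 to 155 genes: 22 without E5.75 replicate 1, 155 without E5.75 replicate 2, 3 without E6.5 replicate 1 and 0 without E6.5 replicate 2. It stayed within 1.5 times with the 8 arrays of tissue and rsEpiSC lines (5), the mean of a gene's probe sets (5), no variance trend (7) and a robust one (5). The replicate numbers did not pair the stages (r = 0.03 between the replicate differences of the stages).

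The interaction count (2) was 1 with the replicate block, 7 with the 8 arrays, 1 with array weights, 4 after quantile normalization, 6 with the signal filter, 0 with the mean of probe sets, 1 with every probe set and 4 with no variance trend, and 1 to 5 when 1 array was left out. It was 3 with arrays centred on their median.

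All 5 genes kept their direction in each alternative that measured them. That was largely fixed in advance: the arrays of their stages were separate, so leaving out 1 array cannot change the sign. Over 146 genes and 15 alternatives, 24 of 2142 differences changed sign, none of them past the threshold. With 1 array left out the differences ran from -0.59 to 0.05 for Afp, -0.06 to 0.32 for Cer1, -0.06 to 0.24 for Dnmt3b, -0.04 to 0.52 for Fgf5, -0.11 to 0.12 for H4c12, -0.61 to 0.95 for Lefty1, -0.11 to 0.78 for Lefty2, -0.82 to 0.16 for Mbd1, -0.10 to 0.46 for Meg3, -0.89 to 0.40 for Nodal, -0.12 to 0.25 for Pou5f1, -0.27 to 0.16 for Sox2, -0.45 to 0.57 for Ttr, -0.11 to 0.33 for Utf1 and -0.51 to 0.01 for Xist. Quantile normalization gave Utf1 -0.03, Pou5f1 -0.02 and H4c12 -0.01, centring gave Sox2 0, and the mean of probe sets gave Cdh2 0.05. The cause was not tested.

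Of 340 list medians under the alternatives, 28 moved by more than the replicate spread. The germline median was -0.24 without E6.5 replicate 2 and -0.06 among genes above the median signal. The streak median ran from 0.20 without E6.5 replicate 2 to 0.66 with that filter.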
